A study of Mus musculus with 48 samples.

Results

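Plvap, Cav1 and Cav2 encode an endothelial diaphragm protein and the 2 caveolins that endothelial cells make. They were taken by gene symbol and are 3 of the 15569 genes in the deposited count table. All 3 had been picked with earlier results of these counts known, so their levels and differences are given as descriptions with errors and without a test. Tests were run on 34 genes of related function. The gene lists were also chosen with earlier results of these data known. Their p-values and counts of called genes are therefore not free of that choice.

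The libraries came from Abcg2CreERT;ROSATdTomato mice, in which Cre activity driven by Abcg2 switches on the red reporter TdTomato after tamoxifen. Every animal carried both alleles and received 50 mg/kg tamoxifen by the intraperitoneal route 24 h before the tissue was taken, for both fractions. CD31+CD45-Ter119- cells were sorted into a TdTomato+ fraction, which the submitters call vascular endothelial stem cells, and a TdTomato- fraction, which they call mature endothelial cells. The fractions are therefore defined by recent Abcg2-driven recombination and not by a test of stem cell function. The 10 groups are both fractions of heart at postnatal day 1 (P1), lung at P1, muscle at postnatal day 6 (P6), heart at 6 weeks (6W) and muscle at 6W. There were 46 libraries in 23 matched pairs, with 4 pairs for P1 heart and 6W muscle and 5 pairs for each of the other combinations. Pair 1 of P1 heart was not used, since its TdTomato+ member is marked in the labels as having failed quality control. The labels do not say whether a library is 1 animal or a pool.

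Caveolae are small flask-shaped pits of the plasma membrane that are abundant in the endothelium of heart, lung and muscle. Caveolin-1, encoded by Cav1, is required to build them in endothelial cells. Caveolin-2, encoded by Cav2, assembles with caveolin-1 and depends on it to reach the cell surface, while cavins form an outer coat and EHD and PACSIN proteins shape the neck. PLVAP makes the thin diaphragms that close the neck of caveolae and span the pores of fenestrated capillaries. In mice it is abundant in lung and in fenestrated beds, and is low in blood vessels with a tight barrier.

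On the mm10 build, Plvap lies on the minus strand of chromosome 8 at chr8:71497753-71511769, with 6 exons and a counted length of 2016 bases. Cav2, at chr6:17281185-17289130, and Cav1, at chr6:17306335-17341328, are neighbours on the plus strand of chromosome 6, separated by 17205 bases. No exon base of any of the 3 genes is shared with another gene in the deposited table or in GENCODE M21. Because the neighbours differed together in some comparisons and apart in others, their start regions are shown, each from 250 bases before to 50 bases after the annotated start (RefSeq, GRCm38.p6, plus strand). Capitals mark 3 promoter motifs, each searched on both strands, so that a match on the minus strand reads as its reverse complement. The first is the GC box, spelled GGGCGG, which binds the Sp family of transcription factors. The second is the box spelled CCAAT, which binds the factor NF-Y. The last is the TATA box, spelled TATAAA, which binds the general transcription machinery.
Cav2, chr6:17280935-17281234: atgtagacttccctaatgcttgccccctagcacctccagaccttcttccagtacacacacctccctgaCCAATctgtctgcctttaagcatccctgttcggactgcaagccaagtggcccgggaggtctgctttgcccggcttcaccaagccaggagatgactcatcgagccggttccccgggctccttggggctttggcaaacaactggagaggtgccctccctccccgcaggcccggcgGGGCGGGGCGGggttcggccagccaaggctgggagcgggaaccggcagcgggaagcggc
Cav1, chr6:17306085-17306384: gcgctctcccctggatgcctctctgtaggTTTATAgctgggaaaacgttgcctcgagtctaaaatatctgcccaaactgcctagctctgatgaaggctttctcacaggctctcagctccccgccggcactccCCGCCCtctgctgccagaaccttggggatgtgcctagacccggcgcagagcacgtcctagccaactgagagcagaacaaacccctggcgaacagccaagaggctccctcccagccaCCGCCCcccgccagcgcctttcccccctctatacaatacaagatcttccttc

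The Cav2 window held 2 overlapping GC boxes and 1 CCAAT box, all on the plus strand. The Cav1 window held 2 GC boxes and 1 TATA box, all on the minus strand, and no CCAAT box. Of all 32851 windows of this length, 35.7% held a GC box, 37.4% a CCAAT box and 13.6% a TATA box. GC content was 64.3% for Cav2 and 59.3% for Cav1, beside a median of 52.7% over all windows. These matches describe letters only.

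Total counts per library were 17512843 to 27622937, and the lowest raw count of Plvap in any library was 438. All 8 endothelial markers (Pecam1, Cdh5, Tek, Tie1, Emcn, Erg, Egfl7 and Robo4) averaged at least 10 CPM (counts scaled to library size) in every group. RNA integrity numbers were lower in TdTomato+ than in TdTomato- libraries, by a mean of 0.34 in P6 muscle to 2.12 in 6W muscle. The labels of 6W heart libraries 5 and 6 give heart in the title and muscle in the tissue field. Their mean log2 CPM was 3.74 to 4.51 for cardiomyocyte markers and -1.94 to -1.03 for skeletal muscle markers, so they were kept as heart. These libraries were sequenced with all 6W muscle libraries in run 2, and all others in run 1. In 3 of the 5 P1 lung TdTomato+ libraries, numbers 6 to 8, the summed level of alveolar type 2 markers was 23328 to 61054 CPM, against 1027 to 7017 CPM in the other lung libraries.

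Plvap varied far more across the groups than the caveolins did. Its group means, after TMM scaling (trimmed mean of M values), ran over a 64.9-fold range, against 3.28-fold for Cav1 and 3.79-fold for Cav2. The lowest level was in P1 heart TdTomato+ cells, at 41.7 ± 13.0 CPM (SD, n = 4). The highest was in P1 lung, at 2702 ± 608 CPM in TdTomato+ and 2621 ± 347 CPM in TdTomato- cells (SD, n = 5 each).

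From low to high, the Plvap order went from P1 heart TdTomato+ to 6W heart TdTomato- at 43.3 ± 20.5 CPM (n = 5) and 6W heart TdTomato+ at 107 ± 70.5 CPM (n = 5). Next came P1 heart TdTomato- at 343 ± 80.5 CPM (n = 4), P6 muscle TdTomato- at 554 ± 73.1 CPM (n = 5) and 6W muscle TdTomato- at 574 ± 201 CPM (n = 4). Above them were P6 muscle TdTomato+ at 1133 ± 77.0 CPM (n = 5), 6W muscle TdTomato+ at 1832 ± 952 CPM (n = 4) and both lung groups. Neighbours in this order overlapped in their ranges, except P1 heart and P6 muscle TdTomato-, and 6W muscle TdTomato- and P6 muscle TdTomato+. The heart thus held the lowest levels, muscle the middle ones and newborn lung the highest.

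**Figure D1:**
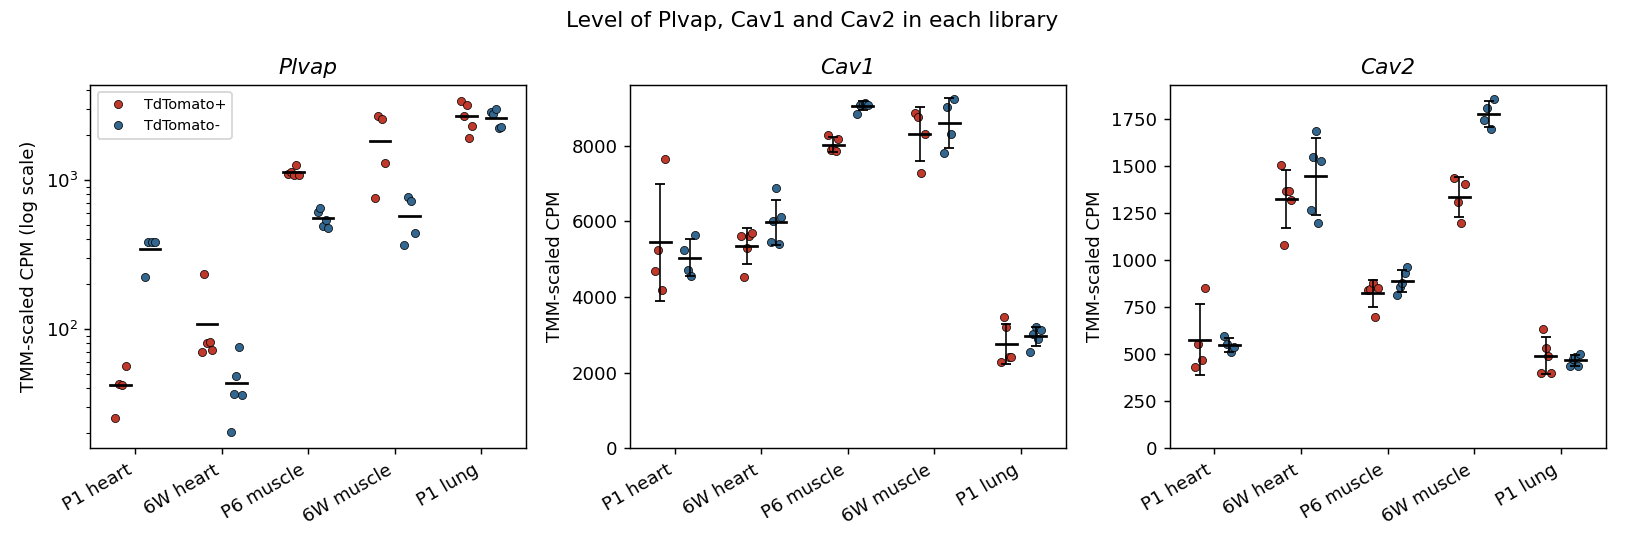
TMM-scaled level of Plvap, Cav1 and Cav2 in each of the 46 libraries (CPM, on a log axis for Plvap), by tissue, age and fraction, with points for libraries and lines for group means (error bars, where drawn, are SD). Plvap spans a 64.9-fold range of group means and is lowest in the heart, while Cav1 and Cav2 span 3.28-fold and 3.79-fold.

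The fraction comparison asks how cells that had activated the Abcg2 reporter differ from the remaining endothelium of the same tissue. Plvap was lower in the TdTomato+ fraction of P1 heart, close to equal in P1 lung, and higher in P6 muscle, 6W heart and 6W muscle. In P1 heart the TdTomato+ libraries held 25.0, 42.8, 42.1 and 56.7 CPM in pairs 2 to 5. Their TdTomato- partners held 223, 385, 385 and 381 CPM. Every TdTomato+ library lay below every TdTomato- library, and the fitted log2 fold change was -3.08 ± 0.24 (SE), 8.43-fold lower. The pair ratios were close to one another, at 0.113, 0.111, 0.109 and 0.149. Ranges did not overlap for 9.37% of the 15557 genes tested in P1 heart.

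In P6 muscle the TdTomato+ libraries held 1099, 1129, 1088, 1267 and 1081 CPM of Plvap. The TdTomato- libraries held 609, 648, 492, 543 and 479 CPM. All 5 TdTomato+ libraries were above all TdTomato- libraries, with a log2 fold change of 1.04 ± 0.20 and pair ratios of 1.74 to 2.33. In this tissue 3.93% of genes had ranges that did not overlap.

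In 6W muscle the TdTomato+ libraries held 754, 2698, 2566 and 1311 CPM of Plvap, and the TdTomato- libraries 366, 771, 719 and 441 CPM. The ranges overlapped slightly, but TdTomato+ was higher in 4 of 4 pairs, by 2.06-fold, 3.50-fold, 3.57-fold and 2.97-fold. The fitted log2 fold change was 1.56 ± 0.23, or 2.96-fold. A single direction in every pair was seen for 27.6% of genes in 6W muscle.

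In 6W heart the TdTomato+ libraries held 70.1, 233, 80.7, 81.1 and 71.8 CPM of Plvap, and the TdTomato- libraries 20.3, 36.7, 47.9, 75.4 and 35.9 CPM. TdTomato+ was higher in 5 of 5 pairs, by 1.08-fold to 6.35-fold, with a log2 fold change of 1.26 ± 0.21. One library, number 2 of the TdTomato+ fraction, stood well above the other 4. Without pair 2 the log2 fold change was 0.90. Fitted by sequencing run, the value was 1.74 ± 0.22 for the 3 pairs of run 1. For the 2 pairs of run 2 it was 0.54 ± 0.19. Single pairs had log2 differences of 1.78, 2.66 and 0.75 in run 1 and 0.11 and 1.00 in run 2, with overlap. These SEs rest on a spread shared over all 5 combinations and do not measure the spread of the 6W heart pairs. In 6W heart 9.26% of genes went 1 way in every pair.

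In P1 lung the TdTomato+ libraries held 3371, 2703, 3212, 1920.1 and 2304 CPM of Plvap, and the TdTomato- libraries 2856, 2762, 2983, 2219 and 2285 CPM. TdTomato+ was higher in 3 of 5 pairs and the log2 fold change was 0.02 ± 0.20, within its error. Whether the Plvap difference itself differs between the 5 combinations was not tested, since the gene was chosen with these values known.

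**Figure D2:**
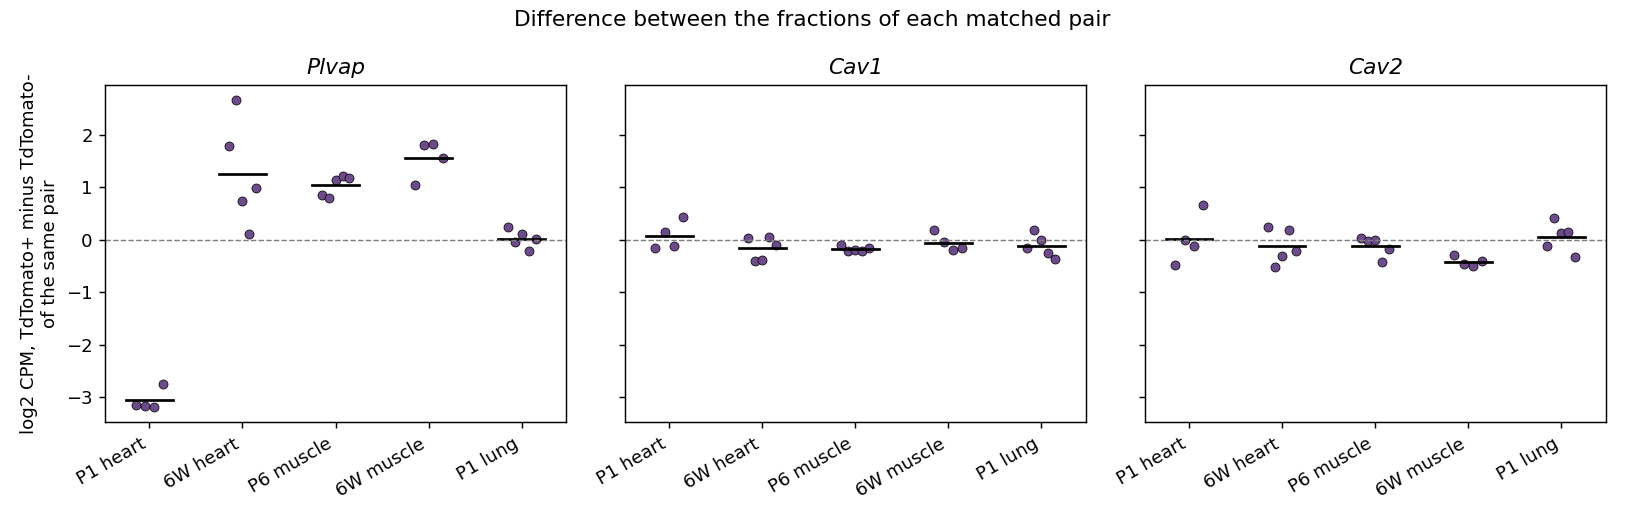
Log2 ratio of TdTomato+ to TdTomato- within each matched pair for Plvap, Cav1 and Cav2, by tissue and age, with points for pairs and lines for the mean of the pairs. All 4 P1 heart pairs lie far below 0 for Plvap, and all pairs of P6 muscle, 6W heart and 6W muscle lie above 0, while Cav1 and Cav2 pairs lie between -0.52 and 0.66, on both sides of 0 except for Cav1 in P6 muscle and Cav2 in 6W muscle, where all pairs lie below it.

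Sorted fractions can hold different mixtures of endothelial and other cells, and in bulk RNA fewer cells of a type and less RNA per cell cannot be told apart. In P1 heart all 6 endocardial markers (Npr3, Nfatc1, Hapln1, Cytl1, Adgrg6 and Foxc1) were lower in the TdTomato+ fraction by the quasi-likelihood test, where 7.21% of all genes were lower. Their summed level was 145 to 231 CPM in TdTomato+ and 339 to 534 CPM in TdTomato- libraries, with Hapln1 and Cytl1 under 1 CPM in the former. Fibroblast markers were lower for 6 of 8 genes, at 10.9 to 356 CPM against 504 to 877 CPM in sum. Lymphatic markers were lower for 4 of 5 genes, at 124 to 194 CPM against 186 to 308 CPM. Of the venous markers 3 of 8 were lower and 1 was higher, with sums of 994 to 1211 CPM against 1029 to 1204 CPM. Capillary markers went the other way, with 4 of 7 higher and 0 lower, at 9326 to 12785 CPM in TdTomato+ and 6584 to 7237 CPM in TdTomato- libraries. In P1 heart 14.7% of all genes were called in either direction. The P1 heart fraction with less Plvap thus held less endocardial, fibroblast and lymphatic RNA and more capillary RNA. The part of these lists in the Plvap difference was not tested.

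Where Plvap was higher in the TdTomato+ fraction, some of the 8 venous markers (Nr2f2, Ephb4, Nrp2, Ackr1, Lrg1, Selp, Vcam1 and Vwf) were higher and some arterial markers were lower. In 6W muscle 6 of 8 venous genes were higher (1.7% of all genes), at 1810 to 2893 CPM in sum against 997 to 1522 CPM, and 5 of 7 arterial genes were lower (3.53% of all genes), at 796 to 1398 CPM against 1353 to 2163 CPM. Of the capillary and of the skeletal muscle genes 2 of 7 each were lower there. In 6W heart 4 of 8 venous genes were higher (0.598%), at 1246 to 1734 CPM against 1062 to 1590.5 CPM, and 3 of 7 arterial genes were lower, at 829.6 to 1124 CPM against 1188 to 1464 CPM. Genes called in either direction were 0.874% of all in 6W heart. In P6 muscle 1 of 8 venous genes was higher (0.624%), with sums of 1599 to 1685 CPM against 1174 to 1471 CPM. More genes of other lists were called in P6 muscle, where 0.977% of all genes were called in either direction. Capillary genes were higher for 3 of 7, at 12915 to 15099.9 CPM against 9569 to 12773 CPM, lymphatic genes lower for 3 of 5, at 149.6 to 209.5 CPM against 286 to 411 CPM, and arterial genes lower for 2 of 7. P1 lung also had 5 of 8 venous genes higher (4.88%), with Plvap close to equal.

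Library 2 of the 6W heart TdTomato+ fraction, with the highest Plvap of its group, also had a mean log2 CPM of 5.24 for endocardial markers, against 2.27 to 3.18 in the other 4 libraries. Across the 6W heart pairs, 2 of 8 fibroblast and 3 of 8 pericyte markers were higher in TdTomato+. The part of all these lists in the Plvap differences was not tested. RNA integrity moved with the fraction too, lower by a mean of 1.85 in TdTomato+ libraries of P1 heart and by 2.12 in those of 6W muscle. TdTomato+ library 4 of P1 heart had the lowest value of the 46 libraries, 3.6 against 8.4 in its partner. Its TdTomato+ libraries 2, 3 and 5 had 7.5, 7.1 and 8.5, against 9.2, 8.0 and 8.5 in their partners. Over all alternative fits, integrity as a covariate included, the Plvap log2 fold change was -3.70 to -3.03 in P1 heart and 1.34 to 1.74 in 6W muscle. The part of RNA integrity in the Plvap differences was not tested.

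**Figure D3:**
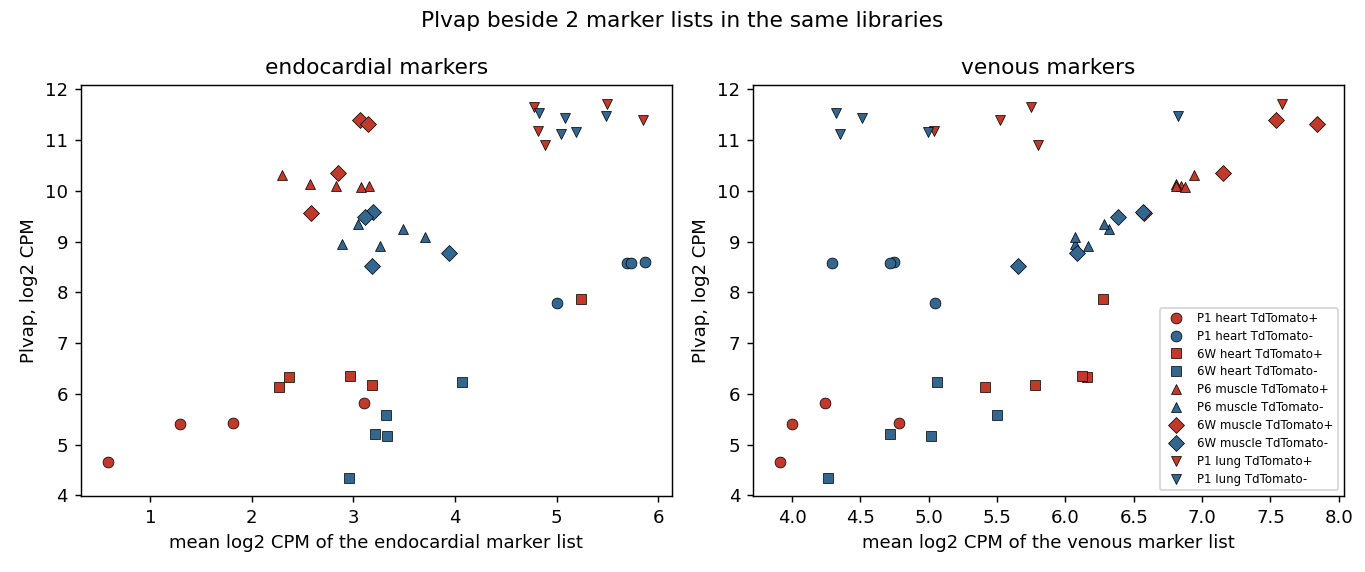
Plvap level (log2 CPM) in each library against the mean log2 CPM of a marker list in the same library, for the endocardial and the venous list, with colour for the fraction and shape for tissue and age. In P1 heart the 4 TdTomato+ libraries lie low on both axes of the endocardial panel and the TdTomato- libraries high, and in 6W muscle the TdTomato+ libraries have both more Plvap and more venous RNA than their partners.

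With age the Plvap level of the heart differed in opposite directions in the 2 fractions, a contrast that was not itself tested. In TdTomato- cells it was 7.92-fold lower at 6W than at P1 (log2 fold change -2.99 ± 0.27), and every 6W library, at 20.3 to 75.4 CPM, lay below every P1 library, at 223 to 385 CPM. In TdTomato+ cells it was 2.62-fold higher at 6W (1.39 ± 0.36), at 70.1 to 233 CPM against 25.0 to 56.7 CPM, again with no overlap. Ranges did not overlap for 39.7% of genes in TdTomato- and 29.9% in TdTomato+ heart. Within the libraries of the shared run and batch number, the log2 fold changes were -3.29 ± 0.30 and 1.65 ± 0.40. Endocardial markers were lower at 6W for 5 of 6 genes in TdTomato- cells (25.3% of all genes), and 2 of 6 were higher in TdTomato+ cells (21.6%). Other lists shifted as well, beside 43% of all genes called in either direction in TdTomato+ and 49.3% in TdTomato- heart. Pericyte and smooth muscle markers were higher at 6W for 7 of 8 genes in TdTomato+ cells, at 250.6 to 1629 CPM in sum against 24.4 to 86.4 CPM, and for 6 of 8 in TdTomato- cells, at 67.0 to 315 CPM against 45.4 to 74.0 CPM. In TdTomato+ cells 5 of 8 venous, 5 of 7 capillary, 4 of 8 fibroblast and 3 of 5 lymphatic genes were higher as well. In TdTomato- cells all 7 capillary genes were higher, at 16225 to 21629 CPM against 6584 to 7237 CPM, and 3 of 8 fibroblast genes were lower. Arterial genes were higher for 5 of 7 and lower for 1 in both fractions. Endothelial genes were higher for 7 of 8 (0 lower) in TdTomato- and 5 of 8 (1 lower) in TdTomato+ cells. Leukocyte genes were higher for 3 of 6 (0 lower) in TdTomato- cells, at sums of at most 19.6 CPM. The part of all these lists in the Plvap values was not tested.

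In muscle the age difference of Plvap was small beside its spread. The log2 fold change of 6W against P6 was 0.69 ± 0.35 in TdTomato+ and 0.05 ± 0.26 in TdTomato- cells, and ranges overlapped in both. All 6W muscle libraries came from run 2 and all P6 muscle libraries from run 1, so age and run cannot be told apart there.

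Plvap differed between organs in both fractions. At 6W the heart held 17.0-fold less than muscle in TdTomato+ cells (log2 fold change -4.08 ± 0.38) and 13.3-fold less in TdTomato- cells (-3.73 ± 0.28). With the heart libraries of the run shared with muscle alone, these values were -4.57 ± 0.47 and -3.35 ± 0.35. Of the 8 venous genes, 2 were lower and 0 higher in TdTomato+ heart than muscle, and 2 lower and 1 higher in TdTomato- heart. Genes called in either direction were 15% and 21.9% of all. At P1 the lung held 65.9-fold more than the heart in TdTomato+ cells (6.04 ± 0.45) and 7.69-fold more in TdTomato- cells (2.94 ± 0.29). Ranges did not overlap in any of the 4 organ comparisons. The share of all genes with no overlap was 17% and 15.7% for heart against muscle and 20.2% and 31.6% for lung against heart, in TdTomato+ and TdTomato- cells. P1 lung and P1 heart had different batch numbers in the deposited run sheet, which does not say what a batch is. Batch and organ cannot be told apart there. Marker lists differed there too, beside 34.5% of all genes called in TdTomato+ and 36.9% in TdTomato- cells. Capillary genes were lower in lung for 6 of 7 (0 higher) and 5 of 7 (1 higher). Endocardial genes were higher for 4 of 6 (0 lower) and lower for 4 of 6 (1 higher). Lymphatic genes were higher for 4 of 5 (0 lower) in both fractions. The part of marker lists in the organ differences of Plvap was not tested. The age and organ comparisons share libraries, so they are not independent of one another.

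Cav1, the principal caveolin of endothelium, was abundant in every library. It was lowest in P1 lung, intermediate in heart and highest in muscle. In P1 lung it was 2764 ± 538 CPM in TdTomato+ and 2959 ± 261 CPM in TdTomato- cells (SD, n = 5 each). The heart groups followed, from 5039 ± 487 CPM in P1 TdTomato- (n = 4) through 5352 ± 478 CPM in 6W TdTomato+ (n = 5) and 5445 ± 1538 CPM in P1 TdTomato+ (n = 4) to 5972 ± 598 CPM in 6W TdTomato- (n = 5). Muscle ran from 8032 ± 191 CPM in P6 TdTomato+ (n = 5) and 8303 ± 719 CPM in 6W TdTomato+ (n = 4) to 8600.5 ± 655 CPM in 6W TdTomato- (n = 4) and 9054 ± 117 CPM in P6 TdTomato- (n = 5). Ranges of neighbours in this order overlapped within each organ and did not overlap between organs.

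Between the fractions Cav1 differed by at most 1.13-fold. In P6 muscle it held 8295, 7895, 7937, 7861 and 8173 CPM in TdTomato+ and 8849, 9087, 9115, 9133 and 9088 CPM in TdTomato- libraries. The TdTomato+ level was lower in all 5 pairs, without overlap, by a log2 fold change of -0.17 ± 0.08. In P6 muscle 3.93% of all genes had ranges that did not overlap. The other log2 fold changes were 0.06 ± 0.09 in P1 heart, -0.11 in P1 lung, -0.15 ± 0.08 in 6W heart and -0.05 ± 0.09 in 6W muscle, with pairs in both directions in each. In P1 heart, library 5 of the TdTomato+ fraction held 7662 CPM, above the 4189 to 5233 CPM of the others. The same library had a mean log2 CPM of 4.46 for fibroblast markers, against -1.18 to 0.15 in the others. Without that pair the P1 heart value turned to -0.06.

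The organ differences of Cav1 were seen in both fractions. The part of marker lists and batch in these differences was not tested. Heart held 1.54-fold less than muscle in 6W TdTomato+ cells (log2 fold change -0.63 ± 0.15) and 1.44-fold less in TdTomato- cells (-0.53 ± 0.09). Lung held 1.94-fold less than heart in P1 TdTomato+ cells (-0.95 ± 0.15) and 1.69-fold less in TdTomato- cells (-0.76 ± 0.09). Ranges did not overlap in any of these 4. Among all genes, 17% in TdTomato+ and 15.7% in TdTomato- cells had no overlap for heart against muscle. For lung against heart the shares were 20.2% and 31.6%. With age the log2 fold change was 0.00 ± 0.15 and 0.25 ± 0.09 in heart TdTomato+ and TdTomato- cells, and 0.05 and -0.07 in muscle, and ranges overlapped throughout.

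Cav2 was ordered by age before organ, though P1 was sampled only in heart and lung and P6 only in muscle. It was lowest in newborn tissue, at 468 ± 29.0 CPM in TdTomato- and 491 ± 98.3 CPM in TdTomato+ lung (SD, n = 5 each), and 551 ± 36.8 CPM in TdTomato- and 577 ± 189 CPM in TdTomato+ P1 heart (n = 4 each). P6 muscle lay above, at 823 ± 72.5 CPM in TdTomato+ and 889.6 ± 57.8 CPM in TdTomato- cells (n = 5 each). The 4 groups at 6W were highest, with 1326 ± 155 CPM in TdTomato+ heart (n = 5), 1335 ± 106 CPM in TdTomato+ muscle (n = 4), 1444 ± 205 CPM in TdTomato- heart (n = 5) and 1776 ± 70.3 CPM in TdTomato- muscle (n = 4). Neighbours in this order overlapped except at the step from P6 to 6W and below 6W muscle TdTomato-.

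Cav2 was higher at 6W than at the earlier age in both organs and both fractions. In heart TdTomato- cells it ranged from 511 to 598 CPM at P1 and from 1197 to 1687 CPM at 6W, a log2 fold change of 1.39 ± 0.09. In heart TdTomato+ cells the ranges were 432 to 850.4 CPM and 1078 to 1502 CPM, with a log2 fold change of 1.22 ± 0.17. Within the shared run and batch these values were 1.45 ± 0.09 and 1.21 ± 0.20. In muscle the log2 fold change of 6W against P6 was 1.00 ± 0.09 in TdTomato- and 0.70 ± 0.16 in TdTomato+ cells. Age and run cannot be told apart in muscle. None of the 4 age comparisons had overlapping ranges, against 35.9% and 38.6% of genes with no overlap in TdTomato- and TdTomato+ muscle. In heart 39.7% of genes in TdTomato- and 29.9% in TdTomato+ cells had no overlap.

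Between the fractions Cav2 stood apart only in 6W muscle among the 5 combinations by range. There the TdTomato+ libraries held 1434, 1308, 1197 and 1401 CPM and the TdTomato- libraries 1741, 1809, 1698 and 1856 CPM. TdTomato+ was lower in 4 of 4 pairs without overlap, at a log2 fold change of -0.42 ± 0.14, in a tissue where 6.61% of genes had no overlap. With RNA integrity as a covariate the value was -0.18. The other values were 0.00 ± 0.14 in P1 heart, 0.05 in P1 lung, -0.12 ± 0.12 in P6 muscle and -0.11 ± 0.12 in 6W heart, all within or close to their errors. Without pair 5, the P1 heart value was -0.21.

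Between organs Cav2 differed little. Heart and muscle at 6W had a log2 fold change of -0.00 in TdTomato+ cells with overlapping ranges, and of -0.30 ± 0.09 without overlap in TdTomato- cells. Lung against heart at P1 gave -0.21 with overlap in TdTomato+ cells and -0.22 ± 0.09 without overlap in TdTomato- cells. Among all genes in TdTomato- cells, 15.7% had no overlap for heart against muscle and 31.6% for lung against heart. The orders of Cav1 and Cav2 over the 10 groups thus differed in part, although the genes lie next to each other. Spearman's rho over the 10 group means was 0.78.

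Ratios per gene length compare the members with each other within a library. Mean levels in CPM per kilobase of gene length (RPKM) were 999 to 3272 for Cav1, 139.8 to 530.1 for Cav2 and 20.7 to 1340.3 for Plvap over the 10 groups. Per 100 units of Cav1, heart TdTomato- cells held 9.08 units of Cav2 at P1 and 19.9 ± 1.18 at 6W, and muscle TdTomato- cells 8.11 at P6 and 17.09 ± 0.88 at 6W. In 6W muscle the TdTomato+ libraries held 12.3 to 13.9 units of Cav2 per 100 of Cav1, below the 16.5 to 18.4 of all TdTomato- libraries. In 6W heart the same ratio was 20.4 ± 1.23 in TdTomato+ and 19.9 ± 1.18 in TdTomato- cells. In P1 lung it was 14.7 in TdTomato+ and 13.11 in TdTomato- cells, beside 13.3 in 6W muscle TdTomato+ cells.

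Plvap exceeded Cav1 per length only in the P1 lung among the 10 groups. All 10 lung libraries held at least 100.3 units of Plvap per 100 of Cav1, with means of 123 ± 21.4 in TdTomato- and 137 ± 38.6 in TdTomato+ cells. At the other end, P1 heart TdTomato+ and 6W heart TdTomato- cells held 1.06 and 1.01 units. The muscle TdTomato+ groups held 19.4 units at P6 and 31.0 at 6W, the latter with a range of 11.7 to 48.3. Over the 10 groups the mean of this ratio ran from 1.01 to 137, while that of Cav2 to Cav1 ran from 8.11 to 20.4.

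**Figure D4:**
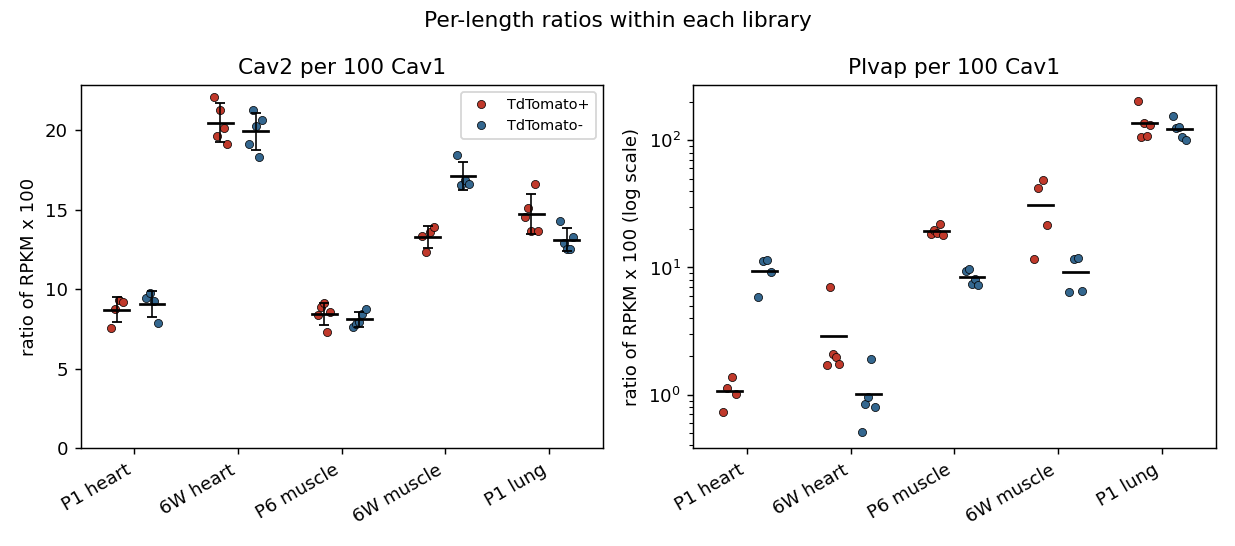
Ratio of RPKM times 100 within each library for Cav2 over Cav1 and for Plvap over Cav1 (log axis for the latter), by tissue, age and fraction, with points for libraries and lines for group means (error bars, where drawn, are SD). Cav2 over Cav1 is highest in both 6W heart groups and in 6W muscle TdTomato- cells, while 6W muscle TdTomato+ cells lie beside the P1 lung groups, and Plvap over Cav1 is at or above 100.3 in all lung libraries and near 1 in the lowest heart groups.

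The caveola coat list held 10 other genes. They are the cavins Cavin1, Cavin2 and Cavin3, the muscle forms Cavin4 and Cav3, the neck ATPases Ehd1, Ehd2 and Ehd4, and the membrane-bending Pacsin2 and Pacsin3. Genes were tested with the edgeR quasi-likelihood test and Benjamini-Hochberg adjustment over all genes, and called at an adjusted p below 0.05. Between the fractions 3 of 10 were called in P1 heart (14.7% of all genes), 4 in P1 lung (9.78%), 0 in P6 muscle (0.977%), 0 in 6W heart (0.874%) and 1 in 6W muscle (5.23%). At an unadjusted p below 0.05 there was 1 gene in P6 muscle and 2 in 6W heart. The list's median log2 fold change was 0.22 in P1 heart and -0.21 in P1 lung, against -0.04 and 0.00 over all genes.

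In P1 heart Cavin3, which binds protein kinase C delta, rose in TdTomato+ cells, at 356 ± 93.12 CPM against 260.3 ± 24.5 CPM (n = 4 pairs, log2 fold change 0.40 ± 0.11, edgeR adjusted p = 0.0158). Cavin1, which is needed for caveola formation, was also higher, at 1361 ± 174 CPM against 977 ± 109 CPM (0.46 ± 0.15, edgeR adjusted p = 0.0435). The Cavin1 call was lost without any 1 of the 4 pairs and the Cavin3 call without pair 2, 3 or 4. Pacsin3 was lower, at 1.13 CPM against 2.69 CPM (-1.67 ± 0.53, edgeR adjusted p = 0.036), a call lost without pair 2 or 3.

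In P1 lung Cavin3 rose in TdTomato+ cells in 5 of 5 pairs, at 254 ± 64.5 CPM against 165 ± 37.5 CPM (log2 fold change 0.61 ± 0.10, edgeR adjusted p = 0.000168). Ehd4 fell, at 462 ± 147 CPM against 639 ± 72.1 CPM (-0.52 ± 0.10, edgeR adjusted p = 0.00114), as did Ehd1 (-0.40 ± 0.08, edgeR adjusted p = 0.00137). Cavin2, a curvature-inducing cavin, was lower by -0.28 ± 0.08 on the log2 scale (edgeR adjusted p = 0.0286), a call lost without pair 6, 7 or 8. The calls of Cavin3 and Ehd1 were lost with P1 heart pair 1 in the fit, and those of Ehd1 and Ehd4 without the pair block. Pairs 6 to 8 include the TdTomato+ libraries with high alveolar type 2 RNA.

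In 6W muscle Ehd4 was the coat gene called. It rose 2.08-fold in TdTomato+ cells, at 325 ± 95.7 CPM against 152 ± 27.12 CPM (n = 4 pairs, log2 fold change 1.05 ± 0.11, edgeR adjusted p = 5.97e-06), and stayed called in every alternative fit. The fraction effects on 4 of the 10 coat genes differed among the 5 combinations, where 16.8% of all genes did (edgeR test of equality). These were Ehd4 (adjusted p = 3.33e-06), Cavin3 (adjusted p = 0.00535), Pacsin3 (adjusted p = 0.00813) and Ehd1 (adjusted p = 0.0209). Ehd4 had log2 fold changes of -0.52 in P1 lung, 0.30 in P1 heart and 1.05 in 6W muscle.

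With age in the heart, 4 coat genes were called in TdTomato+ cells (43% of all genes) and 2 in TdTomato- cells (49.3%). Ehd1 rose in both, by 1.19 ± 0.18 (edgeR adjusted p = 1.41e-05) and 1.58 ± 0.12 (edgeR adjusted p = 1.14e-10) on the log2 scale. Cavin2 rose in both too, from 1804 ± 169 to 2728 ± 187 CPM (edgeR adjusted p = 0.00138) and from 1627 ± 90.7 to 2809 ± 173 CPM (edgeR adjusted p = 9.45e-07). Pacsin3 rose in TdTomato+ cells from 1.13 to 7.73 CPM (edgeR adjusted p = 0.0014), and Cavin1 was lower there (-0.55, edgeR adjusted p = 0.0488), a call lost in several alternative fits. Ehd1 and Cavin2 thus went in the direction of Cav2, while Cav1 was at 0.00 and 0.25 on the log2 scale.

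In muscle, where age and run cannot be told apart, 5 of 10 coat genes were called for 6W against P6 in each fraction. The share of all genes was 34% in TdTomato+ and 42.5% in TdTomato- cells. Ehd1 rose in both, by 0.63 (edgeR adjusted p = 0.00786) and 0.77 (edgeR adjusted p = 5.59e-06) on the log2 scale, and so did Cavin2, by 0.40 (edgeR adjusted p = 0.0322) and 0.50 (edgeR adjusted p = 0.000302). Ehd4 rose in TdTomato+ cells by 0.68 (edgeR adjusted p = 0.0113), and in TdTomato- cells Cavin1 fell by 0.44 (edgeR adjusted p = 0.00033). Pacsin3 was higher in TdTomato- cells at 6W by 0.88 (edgeR adjusted p = 0.0499). Cav3 in TdTomato+ cells (edgeR adjusted p = 0.00826) and Cavin4 in TdTomato+ and TdTomato- cells (edgeR adjusted p = 0.0435 and 0.00375) were lower at 6W, at means of at most 2.11 CPM. In TdTomato+ cells the calls of Ehd1, Ehd4, Cavin2 and Cavin4 were each lost on leaving out some single library.

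Between organs the coat lists held 2 and 3 called genes for 6W heart against muscle (15% of all genes in TdTomato+ and 21.9% in TdTomato- cells). Cavin3 was lower in heart in both fractions, at 305.1 ± 28.07 against 518 ± 73.1 CPM (edgeR adjusted p = 0.00432) and 280.1 ± 29.6 against 503 ± 56.3 CPM (edgeR adjusted p = 3.27e-05). Ehd4 was lower in TdTomato+ heart (-0.98, edgeR adjusted p = 0.00196), and in TdTomato- heart Ehd1 was higher (0.48, edgeR adjusted p = 0.00325) and Pacsin3 4.01-fold lower (edgeR adjusted p = 0.000329). With heart libraries of the shared run alone, the TdTomato+ calls of Cavin3 and Ehd4 were lost.

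For P1 lung against heart 6 coat genes were called in each fraction (34.5% and 36.9% of all genes). Cavin1, Cavin2, Cavin3 and Ehd2 were lower in lung in both fractions, as Cav1 was. Cavin1 was 562 ± 201 against 1361 ± 174 CPM in TdTomato+ cells (edgeR adjusted p = 0.000171) and 608 ± 32.2 against 977 ± 109 CPM in TdTomato- cells (edgeR adjusted p = 2.1e-06). Ehd2, which stabilises caveolae at the surface, was 2.92-fold and 2.96-fold lower (edgeR adjusted p = 0.000843 and 0.00377). Cavin2 was lower by 0.86 and 0.47 on the log2 scale (edgeR adjusted p = 8.17e-05 and 0.000797) and Cavin3 by 0.46 and 0.64 (edgeR adjusted p = 0.0411 and 0.000288). Ehd4 went the other way, 2.95-fold and 5.08-fold higher in lung (edgeR adjusted p = 6.92e-06 and 8.89e-13). Pacsin3 was higher in TdTomato+ lung, at 11.3 against 1.13 CPM (edgeR adjusted p = 0.000559), and Cavin4 in TdTomato- lung, at 1.25 against 0.0887 CPM (edgeR adjusted p = 0.00723). Pacsin2 was called in no comparison.

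**Figure D5:**
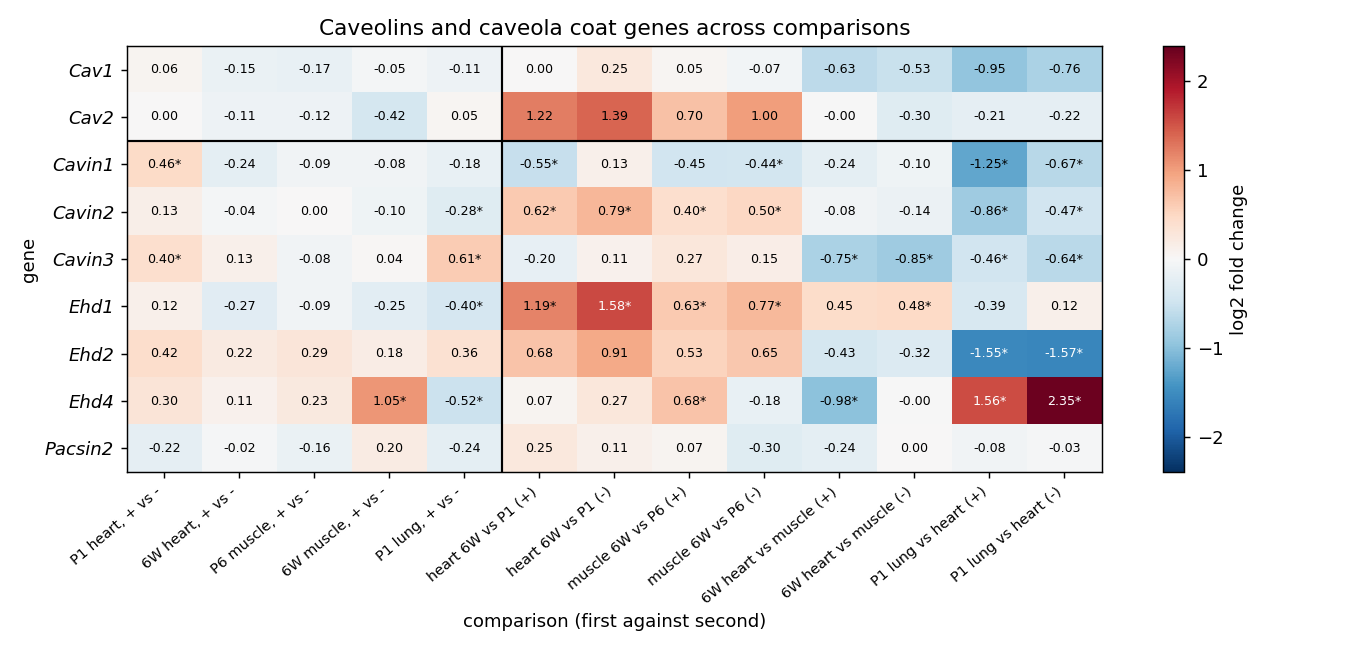
Log2 fold change (colour and printed value) of Cav1, Cav2 and 7 of the 10 caveola coat genes in each fraction, age and organ comparison, where + and - name the fraction and a star marks coat genes called by the edgeR test. The 3 coat genes with group means of at most 12.2 CPM are not drawn. Ehd1 and Cavin2 are higher at 6W with Cav2 in heart and muscle, Cavin1, Cavin2, Cavin3 and Ehd2 are lower in lung with Cav1, and Ehd4 is higher in lung.

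The other 24 genes were those linked to caveolar transport and signalling, VEGF with its receptors, and Wnt signalling with barrier genes. Over all 34 genes, 11 were called between the fractions in P1 heart (7 higher and 4 lower in TdTomato+, beside 14.7% of all genes). There were 11 in P1 lung (3 and 8, beside 9.78%), 3 in P6 muscle (2 and 1, beside 0.977%) and 6 in 6W muscle (5 and 1, beside 5.23%). In 6W heart, where 0.874% of all genes were called, 0 were called by the edgeR test, with 8 genes at an unadjusted p below 0.05 and 4 called by DESeq2. By the test of equality 16 of 34 had fraction effects that differed among the combinations, beside 16.8% of all genes. This count was 9 without the pair block and 4 with P1 heart pair 1 included. Without the pair block the counts were 5 in P1 heart and 4 in P1 lung, and with P1 heart pair 1 included the P1 lung count was 3.

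Acvrl1 went opposite ways in P1 heart and P1 lung. It encodes the endothelial BMP receptor ALK1, which can carry LDL into endothelial cells, and rose in TdTomato+ P1 heart (log2 fold change 0.64, 4 of 4 pairs, edgeR adjusted p = 0.000192). It fell in TdTomato+ P1 lung (-0.81, 5 of 5 pairs, edgeR adjusted p = 1.04e-06), and its effects differed by the test of equality (adjusted p = 1.56e-06). In P1 heart Sox17, an arterial transcription factor, rose (0.80, edgeR adjusted p = 2.34e-06), Flt1, a VEGF receptor, rose (0.28, edgeR adjusted p = 0.0216), and Trpv4, a calcium channel, rose (0.65, edgeR adjusted p = 0.0202). Apcdd1, an inhibitor of Wnt signalling, fell (-3.12, edgeR adjusted p = 0.00109). In P1 lung Cldn5, the main claudin of endothelial tight junctions, fell (-0.90, edgeR adjusted p = 4.66e-07), with Kdr, the main VEGF receptor (-0.58, edgeR adjusted p = 0.00682), and Dnm2, the dynamin of vesicle scission (-0.38, edgeR adjusted p = 0.00129). Slc2a1, the glucose transporter of barrier endothelium, rose in P1 lung (0.46, edgeR adjusted p = 0.0098). In the same comparison 3 of the 8 endothelial markers were lower and 0 higher, with sums of 5741 to 8607 CPM in TdTomato+ and 8137 to 9329 CPM in TdTomato- libraries, and 3 of 5 alveolar type 2 markers were higher. Genes called in either direction were 9.78% of all in P1 lung. TdTomato+ libraries 6 to 8, those with the most alveolar type 2 RNA, had the lowest mean log2 CPM of endothelial markers, 8.89 to 9.26. The part of these shifts in the lung values was not tested.

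In P6 muscle TdTomato+ cells Trpv4 fell (log2 fold change -0.82, edgeR adjusted p = 0.00899), and Fcgrt, the receptor that protects IgG and albumin, rose (0.38, edgeR adjusted p = 0.0129), as did Slc2a1 (0.48, edgeR adjusted p = 0.0308). All 3 calls were lost without the pair block and with P1 heart pair 1 included, and 1 call was left without pair 1, 4 or 5. In 6W muscle, where Plvap was higher, Cldn5 fell (-0.41, edgeR adjusted p = 0.0198). Scarb1, an HDL receptor (0.34, edgeR adjusted p = 0.0265), and the VEGF co-receptor Nrp1 (0.30, edgeR adjusted p = 0.0291) rose there, with Flt1 (0.27, edgeR adjusted p = 0.0464) and the Wnt receptor Fzd4 (0.37, edgeR adjusted p = 0.0432). These 5 calls were all lost without pair 3, without pair 4, without the pair block and with P1 heart pair 1 included, where Ehd4 alone of the 34 genes was called.

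With age, 19 of 34 genes were called in TdTomato+ heart (15 higher and 4 lower at 6W, beside 43% of all genes) and 20 in TdTomato- heart (14 and 6, beside 49.3%). Fcgrt rose 4.64-fold and 4.72-fold (edgeR adjusted p = 1.57e-11 and 2.41e-12), Acvrl1 3.29-fold and 5.56-fold (edgeR adjusted p = 2.03e-08 and 1.15e-12), and Flt1 2.31-fold and 2.81-fold (edgeR adjusted p = 3.95e-07 and 1.93e-09). In muscle 18 of 34 were called in each fraction (11 higher and 7 lower), beside 34% of all genes in TdTomato+ and 42.5% in TdTomato- cells. Age and run cannot be told apart there. Flt1 rose 4.04-fold and 3.65-fold (edgeR adjusted p = 3.95e-10 and 6.89e-11), and Insr, the insulin receptor, 6.26-fold and 5.31-fold (edgeR adjusted p = 3.41e-07 and 1.11e-09), in TdTomato+ and TdTomato- cells. Vegfa, the ligand, fell by 1.52 and 1.46 on the log2 scale (edgeR adjusted p = 1.62e-05 and 3.13e-07).

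Between organs, 13 and 15 of 34 genes were called for 6W heart against muscle, 3 and 7 of them higher in heart, beside 15% and 21.9% of all genes. With the shared run alone the TdTomato+ count was 7. Cldn5 was 2.61-fold and 2.93-fold lower in heart (edgeR adjusted p = 4.03e-07 and 7.68e-07), Scarb1 3.94-fold and 2.99-fold lower (edgeR adjusted p = 2.42e-06 and 5.65e-08) and Vegfa 3.66-fold and 3.73-fold higher (edgeR adjusted p = 7.09e-06 and 5.24e-08). For P1 lung against heart 24 and 22 were called, 16 and 15 of them higher in lung, beside 34.5% and 36.9% of all genes. Nkd1, a Wnt target and inhibitor, was 26.2-fold and 17.9-fold higher in lung (edgeR adjusted p = 1.52e-09 and 4.23e-11) and Acvrl1 6.74-fold and 18.2-fold higher (edgeR adjusted p = 7.54e-11 and 7.28e-16). Nos3, the nitric oxide synthase that caveolin-1 binds, was 2.41-fold and 2.82-fold lower in lung (edgeR adjusted p = 1.09e-06 and 1.49e-10). The heart, with the least Plvap at 6W, also held less Cldn5 than muscle in both fractions.

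Genes with the most similar pattern were ranked by Pearson's r over the 10 group means of log2 CPM, among 9203 genes with at least 10 CPM on average. The groups share pairs, runs and batches, so r is a description. Thbs1, a matrix glycoprotein, came closest to Plvap (r = 0.98), ahead of Tmem176a, Tmem176b, Flrt3 and Abhd17b (0.94 to 0.95), and 0.174% of genes reached 0.9. For Cav1 the nearest were Nus1 (0.99), Krt222, Sparcl1, Uaca and Tspan4 (0.97), with 1.23% at 0.9 or more. For Cav2 they were Serpinb6a, Il10rb, Stk17b, Nptn and Rbl2 (0.99), with 6.56% of genes at 0.9 or more. The members themselves were less alike, with r of 0.71 for Cav1 and Cav2, -0.21 for Plvap and Cav1, and -0.30 for Plvap and Cav2.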

How the data were processed

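Gene-level raw counts were deposited by the authors, made with STAR and featureCounts on mm10, per the submitters' processing notes. Whether counting used strand was not stated there. Labels name a TruSeq RNA Access kit with poly(A) selection, while the deposited run sheets name a SMART-Seq v4 and Nextera XT workflow. RNA integrity numbers, a degradation score, come from those deposited sheets, which also list 2 rows of no sample used here. Gene length in bases is a deposited column.

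Counts were scaled by TMM in edgeR 4.0.16 (R 4.3.3). A quasi-likelihood fit of 46 libraries held each matched pair as a block and a TdTomato+ effect per combination, over the 15557 genes kept by filterByExpr. Age and organ were compared over the 23 libraries of a fraction, without a block (14966 genes in TdTomato+, 14802 in TdTomato-). The SE is the absolute log2 fold change over the square root of F. It rests on a spread shared over all groups of a fit and does not measure the spread within a single group. DESeq2 1.42.0 was an alternative. The fits were also run on simulated counts with a fixed spread and changes set in advance. That run does not measure how stable the calls are in these libraries.

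The labels call same-numbered libraries matched. Deviations from the group means correlated within pairs over 9450 genes at -0.007 to 0.63 (median 0.32), above 0.1 in 22 of 23 pairs, the exception being P6 muscle pair 5. The own partner was the best match in 19 of 23 pairs. It was not in P6 muscle pairs 2, 4 and 5 and in 6W muscle pair 4. Nothing says that replicates are separate animals, so p-values reflect spread among these libraries, which may be technical.

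The members and lists were chosen with earlier results of these data known. Named genes were the members, all coat genes, up to 2 called genes with the smallest p per other list and comparison, and the 5 most similar genes per member, leaving out unnamed transcripts.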

Additional observations from a re-analysis of the deposited data

Results flagged for a closer look

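Single libraries stood apart from the rest of their group by the gap to the nearest other library. Plvap was low in P1 heart TdTomato- library 2, at 223 CPM, and high in 6W heart TdTomato+ library 2, at 233 CPM, and in P6 muscle TdTomato+ library 4, at 1267 CPM. Cav1 was low in P6 muscle TdTomato- library 1, at 8849 CPM, in a group with a narrow range. Cav2 was low in P6 muscle TdTomato+ library 4, at 696 CPM. Chance alone flags about 1 in 20 groups in this way.

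The fraction difference of Plvap went 1 way in every pair of P1 heart (log2 fold change -3.08) and the opposite way in every pair of P6 muscle (1.04), 6W heart (1.26) and 6W muscle (1.56). That difference between combinations was not tested.

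Among the caveola coat genes the fraction effect differed among the 5 combinations for Ehd4 (edgeR adjusted p = 3.33e-06), Cavin3 (edgeR adjusted p = 0.00535), Pacsin3 (edgeR adjusted p = 0.00813) and Ehd1 (edgeR adjusted p = 0.0209).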

How the results depend on the processing

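For Plvap 64 of its 65 other log2 fold changes moved by less than the spread between replicates. The exception was P1 heart with pair 1 included, at -3.70. All 95 leave-one-out values also moved by less than that spread. Leaving out 1 replicate moves a mean by less than the SD in any case, so this count does not measure stability. In 6W heart the leave-one-out values ran from 0.90 to 1.55. By total count alone Cav1 was 7826 and 7465 CPM in TdTomato- and TdTomato+ 6W muscle and 5634 CPM in P1 heart TdTomato-, and Cav2 was 1617, 1200.7, 616 and 499 CPM in TdTomato- and TdTomato+ 6W muscle and in TdTomato- P1 heart and P1 lung. With RNA integrity as a covariate beside the replicate block, the 6W muscle values were 0.17 for Cav1 and -0.18 for Cav2, and 6 of 34 pathway genes were called in P1 heart.

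Without the replicate block 5 pathway genes were called in P1 heart, 4 in P1 lung, 0 in P6 muscle, 1 in 6W muscle and 9 for equality. With P1 heart pair 1 included, 3 were called in P1 lung, 0 in P6 muscle, 1 in 6W muscle and 4 for equality, the latter an alternative added after the data were seen. Fitting each tissue and age alone gave 5 in P1 heart and 6 in P6 muscle. In 6W heart 1 was called with the pairs of run 1 and 4 with DESeq2. For TdTomato+ 6W heart against muscle 7 were called with the shared run alone. Leaving out a pair gave 5 (without pair 2) to 12 calls in P1 heart, 1 (without pair 1, 4 or 5) to 2 in P6 muscle, 0 to 1 (without pair 6) in 6W heart and 1 (without pair 3 or 4) to 4 in 6W muscle. The cause of these shifts was not tested. Other counts stayed within 1.5 times. For the coat genes, 47 leave-one-out and 24 other alternatives lost a call, 15 and 12 gained one, 888 and 605 stayed on their side of the threshold, and none changed direction past it. Depth limits Cav3 and Cavin4, whose group means were at most 2.11 CPM.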

Other observations

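In P1 heart pair 1, which was left out, the TdTomato+ library held 1.46 CPM of Plvap against 349.5 CPM in its TdTomato- partner. Cav1 was 7452 against 3838 CPM and Cav2 989.9 against 338 CPM. The TdTomato+ library had a count for 8631 genes and the partner for 14211.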
